A study of Mus musculus with 14 samples.

Results

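The phase II conjugation enzymes examined here are the UDP-glucuronosyltransferases (UGT), the cytosolic and mitochondrial glutathione S-transferases (GST) and the cytosolic sulfotransferases (SULT), in tumours of mouse liver. Rows of the deposited count table were taken by symbol, as the Ugt1a, Ugt2a and Ugt2b genes, the Gst genes of the a, m, p, t, k, o and z classes, and the numbered Sult genes. This gave 64 of 77981 rows, with 19 UGT, 24 GST and 21 SULT genes. Of these, 44 had 20 or more counts summed over the 14 libraries and were tested (11 UGT, 19 GST and 14 SULT genes), among 19723 genes tested in all.

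In every group the tumours came from c-Myc and β-catenin plasmids (mouse genes) delivered to the liver by hydrodynamic injection, a method that drives DNA into liver cells of living animals. WT (n = 5) is the wild-type group, CDK18KO (n = 5) lacks Cdk18, and DKO (n = 4) lacks Cdk18 and had floxed Cdk16 alleles deleted in established tumours through Cre-ERT2, a recombinase activated by tamoxifen. The labels' protocols give 5 daily tamoxifen doses of 75 mg/kg for these animals and for Cre-ERT2 controls, with collection 10 days after the last. The sources used here do not say which libraries are from such controls, nor the strain, sex and age. Loss of Cdk16 thus cannot be told apart from tamoxifen and Cre-ERT2 in the DKO comparisons.

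RNA was taken from whole pieces of frozen tumour and read by 3′ messenger RNA sequencing, which counts tags near the poly(A) end of a transcript and is not scaled by transcript length. Total counts were 1442417 to 6068209 per library, and members held 0.198% of all counts. Levels are CPM, the count divided by the TMM-adjusted library total and put on the usual sequencing-depth scale, and log2 fold changes come from edgeR. Cdk18 ranged from 1.22 to 11.5 CPM in WT, 0.943 to 3.37 in CDK18KO and 0.525 to 4.13 in DKO libraries, and Cdk16 from 38.7 to 65.2, 31.6 to 68.9 and 16.8 to 48.1. These 3′ tags may lie outside the deleted exons, and then they do not check the labels. Y-linked genes summed to 213.5 CPM in WT 3, 735 in WT 5 and 363.6 in CDK18KO 1, and to at most 31.0 in the other libraries (at most 2.68 in DKO).

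Phase II enzymes attach a polar group to drugs, hormones, bile pigments and bile acids so that they can be excreted. UGTs transfer glucuronic acid from UDP-glucuronic acid in the endoplasmic reticulum, GSTs join electrophiles to glutathione, and SULTs transfer sulfate from the donor PAPS. All of these are prominent products of differentiated hepatocytes, and many are lowered when liver cells become malignant.

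Some members cannot be separated by tags from the end of the transcript, which decides how their values can be read. The Ugt1a genes lie in an array on chromosome 1 in which separate first exons are spliced to shared final exons. The stretches below cross that junction in the 4 tested Ugt1a genes, with 24 bases of the gene's own first exon in lower case and 36 bases of the shared exon in capitals (GENCODE M21 transcripts, GRCm38).
Ugt1a1: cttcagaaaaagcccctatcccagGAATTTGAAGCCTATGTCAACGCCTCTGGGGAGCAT
Ugt1a5: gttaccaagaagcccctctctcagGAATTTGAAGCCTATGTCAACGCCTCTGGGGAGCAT
Ugt1a6a: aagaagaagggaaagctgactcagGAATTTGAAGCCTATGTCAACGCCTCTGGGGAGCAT
Ugt1a7c: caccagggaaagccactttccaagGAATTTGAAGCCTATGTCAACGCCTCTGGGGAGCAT
Ugt1a1 was identical to Ugt1a5, Ugt1a6a and Ugt1a7c over the last 741 coding bases, and Ugt1a1, Ugt1a5 and Ugt1a6a also shared their last 1314 transcript bases. The sources used here do not state how reads in this shared part were assigned. Single Ugt1a rows are therefore uncertain, and the class is also given as a sum.

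The same limit applies to the pi class of GST. The last 60 coding bases are shown for Gstp1, Gstp3 and the processed pseudogene Gstp-ps, which is not a member, with capitals at bases that differ from Gstp1.
Gstp1: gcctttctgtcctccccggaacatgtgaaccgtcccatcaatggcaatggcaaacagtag
Gstp-ps: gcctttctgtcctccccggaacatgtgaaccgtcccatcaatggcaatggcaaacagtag
Gstp3: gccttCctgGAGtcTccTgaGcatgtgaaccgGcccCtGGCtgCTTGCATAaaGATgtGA
Gstp-ps is identical to Gstp1 over these bases and at 97.6% of 631 aligned transcript bases, whereas Gstp3 differs at 25 of the 60. Gstp2, which is not shown, is also identical to Gstp1 over these 60 bases and over the last 369 transcript bases. The counts of the Gstp2 row are therefore uncertain. Of all counts on Gstp1, Gstp2, Gstp3 and Gstp-ps together, the pseudogene row held 76.0% in CDK18KO 5 (95% Wilson interval 72.2 to 79.5) to 95.9% in WT 5 (86.3 to 98.9). The 3 member rows held the rest.

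In the sum over each family, expression was lowest in 3 of the 5 WT libraries and highest in DKO 2. UGT genes summed to 4.18, 208, 25.2, 36.6 and 121 CPM in WT replicates 1 to 5, 241, 2048, 59.7, 823 and 206 in CDK18KO replicates 1 to 5, and 945, 2435, 178 and 782 in DKO replicates 1 to 4. GST genes summed to 189.8, 837, 286, 144 and 321 CPM in WT replicates 1 to 5, 673, 3599, 407, 2974 and 1206 in CDK18KO replicates 1 to 5, and 2359, 3816, 442 and 1094 in DKO replicates 1 to 4. SULT genes summed to 8.71, 190.1, 24.3, 14 and 74.1 CPM in WT replicates 1 to 5, 69.2, 927, 95.3, 831 and 247 in CDK18KO replicates 1 to 5, and 600.0, 1100.5, 51.6 and 390.4 in DKO replicates 1 to 4. All 3 families were lower in WT 1, WT 3 and WT 4 than in every CDK18KO and DKO library, while WT 2 lay inside the range of CDK18KO for all 3, and WT 5 did for UGT and SULT. The highest library exceeded the lowest 583-fold for UGT, 126-fold for SULT and 26.6-fold for GST.

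**Figure D1:**
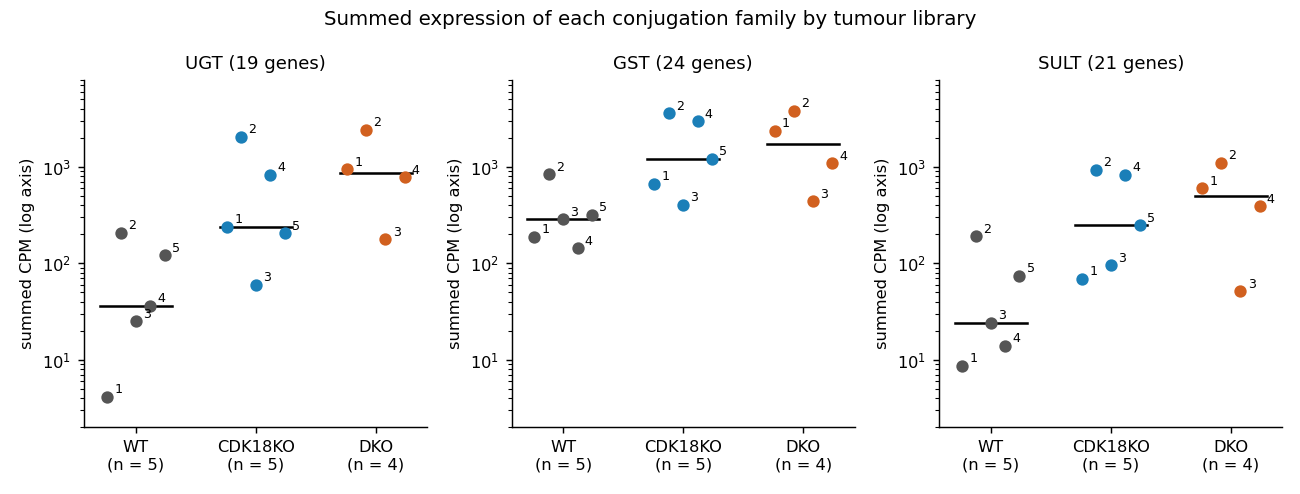
Summed CPM (log axis) of all UGT, GST and SULT rows in each of the 14 tumour libraries, by group, with replicate numbers beside the points and a bar at the group median. The group medians are 36.6, 241 and 864 CPM for UGT, 286, 1206 and 1727 for GST, and 24.3, 247 and 495 for SULT in WT, CDK18KO and DKO, and the groups overlap in every panel.

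No member passed an adjusted p of 0.05 in edgeR in any comparison, against 0.00507% of all genes in CDK18KO against WT, 0.00507% in DKO against WT and 0% in DKO against CDK18KO. The fitted values nevertheless lay mostly on the same side. Of the 44 tested members 6 passed the minimum of 20 counts only through 1 group: Ugt2b37 and Sult3a1 through DKO, Sult2a5 and Sult2a6 through CDK18KO, Sult1e1 through WT, and Sult6b1 through CDK18KO or DKO. Their counts and separations are therefore descriptions. In CDK18KO against WT 41 of the 44 tested members were fitted above 0 (46.5% of all genes), 26 were higher at an unadjusted p under 0.05 (9.47% of all genes) and 1 was lower (6.48%). In DKO against WT 41 were above 0 (47.1% of all genes), 29 were higher at an unadjusted p under 0.05 (11.6%) and 0 were lower (5.08%). In DKO against CDK18KO 25 were above 0 (49.6%), 3 were higher at an unadjusted p under 0.05 (5.52%) and 0 lower (1.83%). Without those 6 genes, 24, 27 and 2 of 38 members were higher and 0 lower at an unadjusted p under 0.05 in the 3 comparisons. DESeq2, run as an alternative test, called 16 of 43 members higher in CDK18KO than WT (3.43% of all genes), 18 of 41 higher in DKO than WT (5.19%) and 1 of 44, Sult3a1, higher in DKO than CDK18KO (0.69%), with 0 lower in each (1.86%, 0.944% and 0.0278% of all genes).

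Set by family, the median log2 fold change in CDK18KO against WT was 2.86 for UGT, 2.17 for GST and 2.15 for SULT, beside -0.06 over all genes. In DKO against WT it was 3.8 for UGT, 2.61 for GST and 2.81 for SULT, beside -0.06 over all genes. Between DKO and CDK18KO it was 0.41, 0.04 and -0.08. All 11 UGT genes were fitted above 0 in both comparisons with WT, as were 18 and 17 of 19 GST genes and 12 and 13 of 14 SULT genes. WT 2 held these medians down: without it they were 3.71, 3.60 and 3.58 in CDK18KO against WT and 4.65, 3.69 and 4.23 in DKO against WT. Without CDK18KO 2 the CDK18KO medians were 2.37, 1.82 and 1.47, without DKO 2 the DKO medians were 2.91, 1.97 and 2.14, and the UGT and GST medians of DKO against CDK18KO turned to -0.21 and -0.42. Without CDK18KO 2 the SULT median of DKO against CDK18KO was 0.75.

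**Figure D2:**
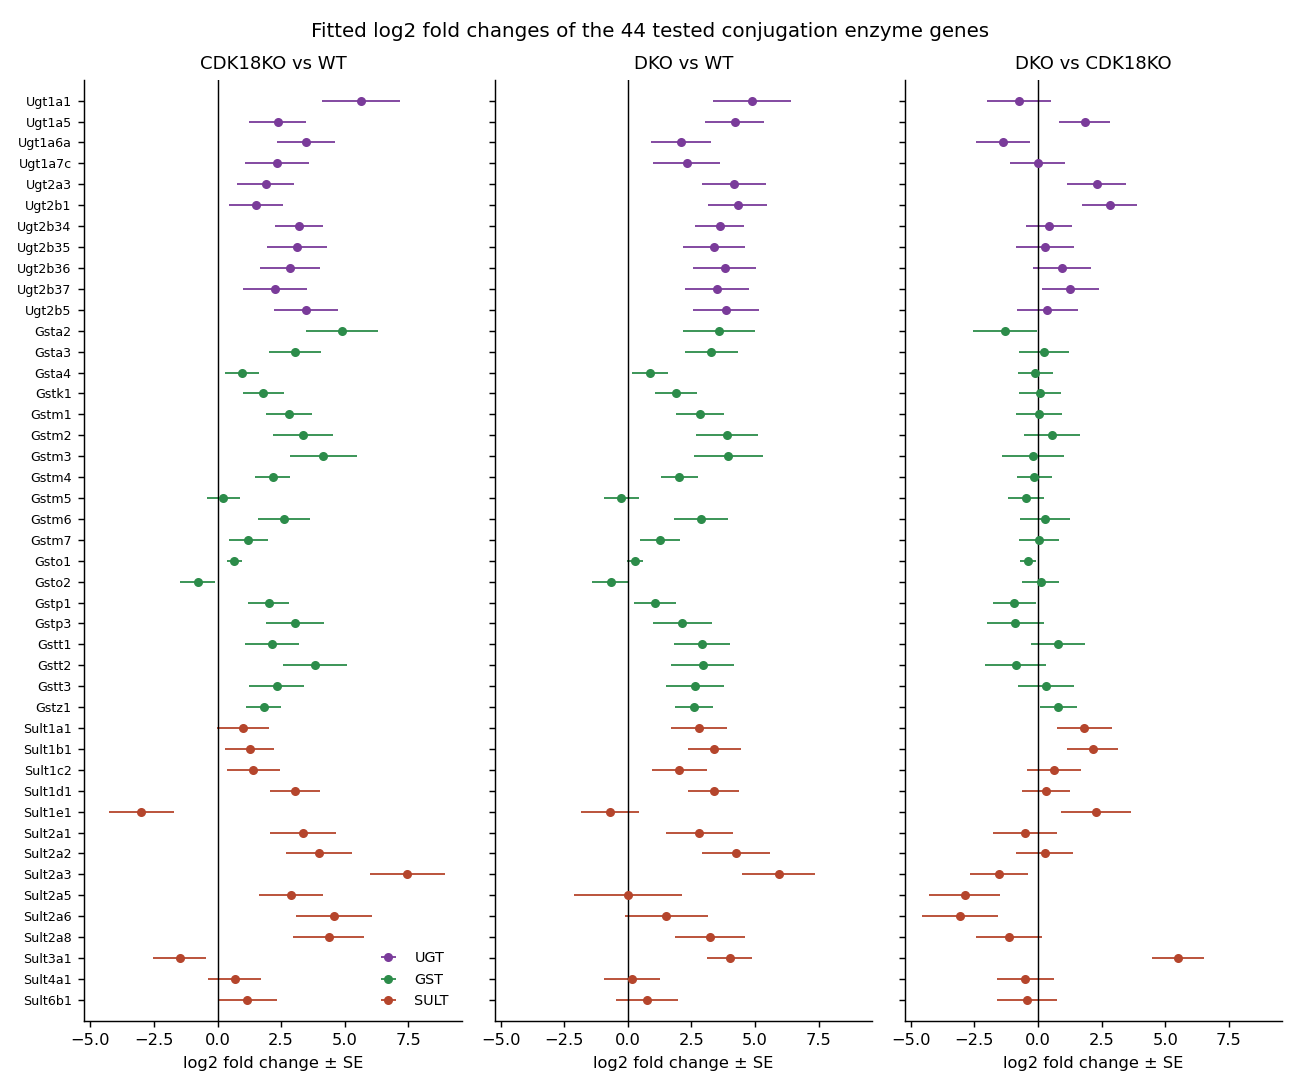
Log2 fold change with its standard error for the 44 tested members (rows, coloured by family) in the 3 comparisons (panels), from the edgeR fit over all 14 libraries. In both comparisons with WT nearly all points lie right of 0, from -2.99 (Sult1e1) to 7.46 (Sult2a3) in CDK18KO against WT, and in DKO against CDK18KO they lie on both sides, with Sult3a1 farthest to the right.

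Hepatocyte markers moved with the families. Over 29 markers the median log2 fold change was 2.29 in CDK18KO against WT, 3.05 in DKO against WT and 0.52 in DKO against CDK18KO. All 29 had counts, and their sum was 370.2, 9656, 757, 1119 and 3939 CPM in WT replicates 1 to 5, 5234, 29095, 3328, 18734 and 16225 in CDK18KO replicates 1 to 5, and 27692, 42531, 3797 and 13957 in DKO replicates 1 to 4. Ordered by the mean log2 CPM of these markers, WT 1, WT 3 and WT 4 were the lowest 3 libraries and DKO 2 the highest, as they were for UGT. Across the 14 libraries the median Pearson correlation of members with that mean was 0.84 for UGT, 0.82 for GST and 0.72 for SULT, and -0.10 over all genes, as a description of values that share library scaling. With the marker mean as a covariate, the family medians were 0.61, 0.50 and 0.59 in CDK18KO against WT and 0.66, -0.16 and -0.24 in DKO against WT. In that fit 34 members were above 0 in CDK18KO against WT, 23 in DKO against WT and 10 in DKO against CDK18KO. At an unadjusted p under 0.05, 3 were higher and 3 lower in CDK18KO against WT (1.26% and 3.34% of all genes). In DKO against WT 0 were higher and 0 lower (1.46% and 1.09%). In DKO against CDK18KO 1 was higher and 10 lower (5.32% and 2.87%). In bulk tumour, fewer hepatocyte-like cells and less RNA per cell cannot be told apart.

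**Figure D3:**
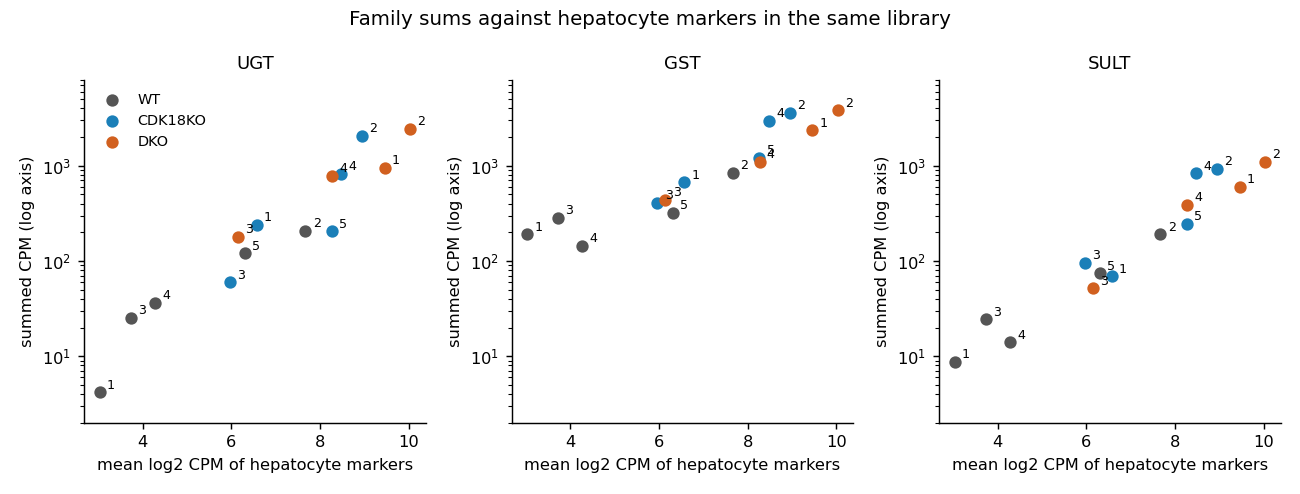
Summed CPM of each family (log axis) against the mean log2 CPM of 29 hepatocyte markers in the same library, coloured by group with replicate numbers. Libraries of all 3 groups lie along the same rising band, with WT 1 (UGT 4.18 CPM) at its lower end and DKO 2 (UGT 2435 CPM) at its upper end.

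Markers of other cells moved too. Cholangiocyte markers, summed, ranged from 161 to 451 CPM in WT, 35.8 to 319 in CDK18KO and 143 to 577 in DKO, and 10 of 11 were fitted lower in CDK18KO than WT. Stellate and fibroblast markers ranged from 565 to 1373 CPM in WT, 56.0 to 1037 in CDK18KO and 518 to 1342 in DKO. Neutrophil markers ranged from 43.5 to 263 CPM in WT, 5.51 to 98.6 in CDK18KO and 370.1 to 548 in DKO, and all 8 tested were fitted higher in DKO than WT. Erythroid markers ranged from 587 to 2491, 531 to 1968 and 1621 to 9844 CPM, and B cell markers from 2.09 to 8.63, 1.3 to 8.45 and 33.0 to 123. Their part in the results was not tested. A further fit left out WT 3, WT 5 and CDK18KO 1, the libraries with Y-linked genes above 100 CPM. In it 17, 16 and 4 members were higher at an unadjusted p under 0.05 in the 3 comparisons (7.2%, 7.75% and 6.57% of all genes). In the same order 1, 0 and 1 were lower (6.96%, 4.78% and 2.25%). The family medians were 3.06, 2.17 and 2.36 in CDK18KO against WT and 3.66, 2.30 and 2.41 in DKO against WT. With the Y-linked level as a covariate, 11, 7 and 2 members were higher (3.47%, 4.5% and 6.37% of all genes). In that fit 1, 0 and 2 were lower (5.23%, 3.6% and 2.21%).

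Among the UGTs, nearly all tags came from the Ugt2b genes on chromosome 5, whose products glucuronidate steroids, bile acids and drugs. They held 88.5% of UGT counts over the 14 libraries (95% Wilson interval 88.0 to 88.9). Ugt2b34 (chr5:86889767-86906937, minus strand) had the highest mean of the family. Ugt2b34 stood at 2.44, 70.6, 19.5, 11.6 and 41.7 CPM in WT replicates 1 to 5, 80.9, 751, 28.5, 323 and 158 in CDK18KO replicates 1 to 5, and 270.4, 655, 57.4 and 447 in DKO replicates 1 to 4. Only WT 2 and WT 5 reached the lower end of the knockout libraries, and the log2 fold change was 3.19 ± 0.93 (SE) in CDK18KO against WT (edgeR adjusted p = 0.168) and 3.61 ± 0.97 in DKO against WT (adjusted p = 0.174). Ugt2b36 measured 0.348, 49.6, 2.43, 11.6 and 29.5 CPM in WT replicates 1 to 5, 69.9, 485, 7.35, 111 and 12.3 in CDK18KO replicates 1 to 5, and 204, 679.7, 61.9 and 104 in DKO replicates 1 to 4. Every DKO library lay above every WT library for Ugt2b36, with a log2 fold change of 3.8 ± 1.25 (adjusted p = 0.176), while CDK18KO overlapped WT.

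Ugt2b1, Ugt2b36 and Ugt2b37 were the UGT genes whose DKO and WT libraries did not overlap. They were 3 of the 4 members so separated in DKO against WT, the other being Sult3a1, where 2.46% of all genes were, and 0 were separated in the opposite direction (2.42%). Without the 6 genes that passed the minimum only through 1 group, Ugt2b37 and Sult3a1 among them, 2 of 38 members were separated in this comparison. Ugt2b1 was found at 0, 7.56, 0, 1.83 and 2.88 CPM in WT replicates 1 to 5, 13.3, 16.4, 1.23, 4.28 and 2.36 in CDK18KO replicates 1 to 5, and 62.2, 131, 8.98 and 8.03 in DKO replicates 1 to 4. For this gene DKO was also higher than CDK18KO at an unadjusted p of 0.0204, with a log2 fold change of 2.81 ± 1.08 (adjusted p = 0.547), and it is the member with the largest positive value of the family in that comparison. Ugt2b37 was scarce, with 23 counts in DKO, 12 in CDK18KO and 3 in WT, and passed the minimum only through DKO. The lack of overlap rested on 1 count in DKO 4 (0.536 CPM) against 3 counts in WT 2 (0.454 CPM), a larger library. As a description, DKO exceeded WT 13.0-fold with a 95% counting interval of 3.93 to 67.7. Ugt2b5 and Ugt2b35 had log2 fold changes of 3.49 and 3.13 in CDK18KO against WT and 3.85 and 3.40 in DKO against WT.

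Ugt2a3, of a small class found in liver and intestine, was highest in DKO 1 and DKO 2. Ugt2a3 had values of 0.696, 22.5, 0.608, 2.13 and 7.91 CPM in WT replicates 1 to 5, 9.75, 93.6, 4.6, 19.4 and 3.3 in CDK18KO replicates 1 to 5, and 170.1, 306, 11.2 and 23.6 in DKO replicates 1 to 4. DKO 1 and DKO 2 lay above every other library, but DKO 3 and DKO 4 lay within or near the WT range, which reached 22.5 CPM in WT 2. Its log2 fold change was 4.19 ± 1.25 in DKO against WT (adjusted p = 0.174) and 1.89 ± 1.14 in CDK18KO against WT (adjusted p = 0.44).

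Ugt1a1, the enzyme that conjugates bilirubin, was at 0.908 CPM or less in every WT library. Ugt1a1 stood at 0, 0.908, 0, 0 and 0.719 CPM in WT replicates 1 to 5, 2.27, 71.1, 3.37, 21.1 and 0.943 in CDK18KO replicates 1 to 5, and 0.59, 41, 1.6 and 3.75 in DKO replicates 1 to 4. All CDK18KO libraries lay above all WT libraries, the lowest by a narrow margin (0.943 in CDK18KO 5 against 0.908 in WT 2). Those values rest on 2 counts in CDK18KO 5 and 6 counts in WT 2, a larger library. Only Ugt1a1 and Sult2a3 of the 44 members were so separated in this comparison, where 0.862% of all genes were. In the opposite direction 0 members were separated (1.67% of all genes). The log2 fold change was 5.65 ± 1.53 in CDK18KO against WT (adjusted p = 0.158) and 4.89 ± 1.54 in DKO against WT (adjusted p = 0.175). Without CDK18KO 2 the first was 4.23 and without DKO 2 the second was 2.34, while without WT 2 they were 7.05 and 6.29. Since single Ugt1a rows share their ends, the summed class was fitted as well and gave 4.07 ± 1.25 (adjusted p = 0.172) and 3.72 ± 1.27 (adjusted p = 0.183). The summed Ugt1a rows stood at 0.696, 2.42, 0, 0.914 and 5.03 CPM in WT replicates 1 to 5, 3.25, 90.0, 7.35, 38.5 and 3.3 in CDK18KO replicates 1 to 5, and 3.24, 70.9, 2.57 and 13.4 in DKO replicates 1 to 4. Of the 541 Ugt1a counts 322 were on Ugt1a1, 59.5% (95% Wilson interval 55.3 to 63.6), and Ugt1a5 was highest in DKO 2 at 20.0 CPM.

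The UGT rows under the test's minimum were Ugt1a2 (1 count in all), Ugt1a6b (3 counts), Ugt1a9 (4 counts) and Ugt1a8, Ugt1a10, Ugt2a1, Ugt2a2 and Ugt2b38 at 0. A total of 0 counts allows at most 3 counts, or 0.074 CPM, over the 14 libraries. Ugt1a8 and Ugt1a10 share their last 740 coding bases with Ugt1a1.

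The alpha class of GST was led by Gsta3 (chr1:21240589-21265661, plus strand), whose product detoxifies aflatoxin epoxide in mice and which held 34.1% of GST counts. Gsta3 measured 9.05, 265, 14.3, 18.6 and 77.7 CPM in WT replicates 1 to 5, 137, 1691, 119, 723 and 517 in CDK18KO replicates 1 to 5, and 892, 1474, 96.5 and 559 in DKO replicates 1 to 4. WT 1, WT 3 and WT 4 lay below 20 CPM and every knockout library at 96.5 CPM or above, but WT 2 lay inside the knockout range. The log2 fold change was 3.04 ± 1.01 in CDK18KO against WT (adjusted p = 0.185) and 3.29 ± 1.05 in DKO against WT (adjusted p = 0.175). Its Pearson correlation with the hepatocyte marker mean, 0.99, was the highest of all members.

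Gsta2 and Gstt2 had their highest values in the same library, CDK18KO 4. Gsta2 reached 109 CPM there against 24.2 at most elsewhere, with a log2 fold change of 4.90 ± 1.42 in CDK18KO against WT (adjusted p = 0.168). Without CDK18KO 4 that value was 2.56, and without WT 2 it was 6.64. Gstt2, a theta class enzyme, reached 439 CPM there against 144 at most elsewhere. The scarce alpha rows Gsta1 (17 counts), Gsta13 (6 counts) and Gsta5 (2 counts) also peaked in CDK18KO 4. Gsta4, which conjugates the lipid peroxidation product 4-hydroxynonenal, differed less between groups, with log2 fold changes of 0.97 ± 0.66 and 0.87 ± 0.70 in CDK18KO and DKO against WT.

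The mu class lies in a cluster on chromosome 3. Gstm1, Gstm2, Gstm3, Gstm4 and Gstm6 each had an unadjusted p under 0.05 in both comparisons with WT, with log2 fold changes of 2.17 to 4.16 in CDK18KO and 2.03 to 3.95 in DKO. Gstm1 was found at 18.1, 97.3, 18.2, 9.75 and 33.1 CPM in WT replicates 1 to 5, 99.7, 562, 31.6, 489 and 50.9 in CDK18KO replicates 1 to 5, and 264, 603, 65.8 and 83 in DKO replicates 1 to 4. Gstm3 had values of 0.348, 15.7, 1.22, 1.22 and 5.75 CPM in WT replicates 1 to 5, 20.5, 237, 3.37, 183 and 9.9 in CDK18KO replicates 1 to 5, and 102, 198, 5.13 and 10.7 in DKO replicates 1 to 4. Gstm7 had log2 fold changes of 1.21 ± 0.75 and 1.25 ± 0.79 (adjusted p = 0.456 and 0.442), between these genes and Gstm5. Gstm5 stood at 28.2, 63.2, 39.5, 19.2 and 36 CPM in WT replicates 1 to 5, 124, 16.9, 49.6, 8.56 and 17.5 in CDK18KO replicates 1 to 5, and 16.8, 16.3, 70.6 and 20.9 in DKO replicates 1 to 4. Its highest values were in CDK18KO 1 and DKO 3, its lowest in CDK18KO 4, and its log2 fold changes were 0.22 ± 0.65 and -0.26 ± 0.69 in CDK18KO and DKO against WT (adjusted p = 0.901 and 0.878). The Pearson correlation with the hepatocyte marker mean was -0.40 for Gstm5 and -0.39 for Gsto2, and above 0 for the other 42 tested members. It was near 0 for Sult4a1 (0.035) and Sult6b1 (0.12), whose Spearman rank correlations were -0.08 and -0.04.

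Of all Gstm counts, Gstm5 held 27.3% (WT 2) to 51.2% (WT 4, 95% Wilson interval 42.5 to 59.9) in WT, 0.909% (CDK18KO 4, 0.621 to 1.33) to 46.4% (CDK18KO 3) in CDK18KO and 1.28% (DKO 2, 0.905 to 1.82) to 35.8% (DKO 3) in DKO. The groups overlapped in this share, with CDK18KO 1 at 38.1% and DKO 3 inside the WT range. The rest of the class, summed without Gstm5, ranged from 18.3 to 1253 CPM over the libraries, 68.5-fold.

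**Figure D4:**
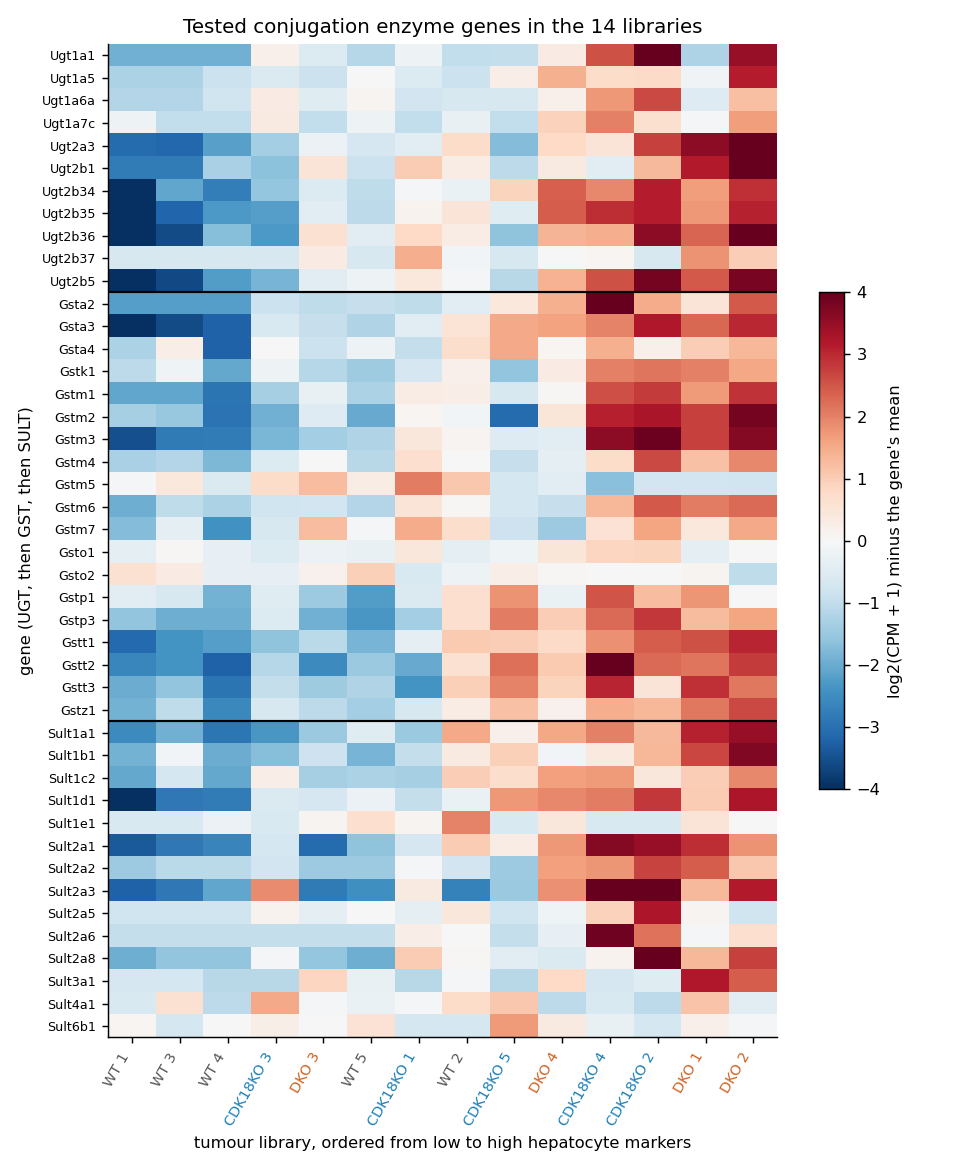
Each tested member (rows, by family) in the 14 libraries (columns, ordered by hepatocyte markers, names coloured by group), as log2(CPM + 1) minus the gene's mean. Most rows turn from low on the left (WT 1, WT 3, WT 4) to high on the right (DKO 1, DKO 2), while Gstm5 and Gsto2 do not. Gsto1, Sult1e1, Sult6b1 and Sult4a1 follow the order weakly or not at all (Pearson correlations with the marker mean of 0.39, 0.26, 0.12 and 0.035).

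Gsto1, an omega class enzyme that reduces dehydroascorbate, varied little between libraries. Gsto1 measured 60.6, 61.3, 80.9, 62.8 and 63.3 CPM in WT replicates 1 to 5, 109, 146, 53.6, 143 and 69.3 in CDK18KO replicates 1 to 5, and 60.1, 78.3, 67 and 111 in DKO replicates 1 to 4. Its values spanned 53.6 to 146 CPM over all libraries, and it was the highest GST gene in WT 1, WT 3 and WT 4, where it held 31.9%, 28.3% and 43.7% of GST counts. The log2 fold change was 0.66 ± 0.30 in CDK18KO against WT (adjusted p = 0.289) and 0.27 ± 0.31 in DKO against WT (adjusted p = 0.695). Gsto2 was scarce, at 2.88 CPM or less, and had the lowest fitted value of the GST family in both comparisons, -0.78 ± 0.70 and -0.68 ± 0.74.

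Gstz1, the maleylacetoacetate isomerase of tyrosine breakdown, had the smallest p of the GST genes in DKO against WT. Gstz1 was found at 21.9, 102, 40.8, 13.1 and 31.6 CPM in WT replicates 1 to 5, 53.3, 213, 53, 230.5 and 191 in CDK18KO replicates 1 to 5, and 367, 526, 39.8 and 95.3 in DKO replicates 1 to 4. The log2 fold change was 2.61 ± 0.75 in DKO against WT (adjusted p = 0.174) and 1.81 ± 0.70 in CDK18KO against WT (adjusted p = 0.234). DKO 3 and DKO 4 lay within the WT range. Gstk1, the kappa class enzyme of mitochondria and peroxisomes, had log2 fold changes of 1.80 ± 0.80 and 1.88 ± 0.83.

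For the pi class, Gstp1 had log2 fold changes of 2.0 ± 0.80 in CDK18KO against WT (adjusted p = 0.242) and 1.07 ± 0.82 in DKO against WT (adjusted p = 0.541). Summed with Gstp2, Gstp3 and the pseudogene row, the values were 2.13 ± 0.63 (adjusted p = 0.169) and 1.54 ± 0.65 (adjusted p = 0.246). That sum ranged from 27.1 to 122 CPM in WT, 59.7 to 399 in CDK18KO and 39.1 to 254 in DKO. Gstp2 (17 counts) and Gstt4 (2 counts) were the other GST rows under the test's minimum.

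The SULT1 class was led by Sult1d1, a catecholamine sulfotransferase, and Sult1a1, which sulfates small phenols. Sult1d1 had values of 1.39, 40.4, 5.78, 6.09 and 41 CPM in WT replicates 1 to 5, 24.7, 349, 32.5, 206 and 165 in CDK18KO replicates 1 to 5, and 98.8, 465, 30.1 and 186 in DKO replicates 1 to 4. Sult1a1 stood at 4.53, 92.3, 7.6, 3.35 and 22.3 CPM in WT replicates 1 to 5, 10.7, 79.3, 5.51, 131 and 36.8 in CDK18KO replicates 1 to 5, and 272, 362, 10.6 and 94.8 in DKO replicates 1 to 4. Sult1d1 had log2 fold changes of 3.05 ± 0.97 in CDK18KO and 3.37 ± 1.01 in DKO against WT (adjusted p = 0.179 and 0.174), and Sult1a1 1.0 ± 1.02 and 2.81 ± 1.11 (adjusted p = 0.677 and 0.222). Sult1b1, which sulfates thyroid hormones, reached 39.5 and 81.4 CPM in DKO 1 and DKO 2 and 14.8 at most elsewhere. Its log2 fold change was 3.40 ± 1.04 in DKO against WT (adjusted p = 0.174) and 2.15 ± 1.0 in DKO against CDK18KO (unadjusted p = 0.0487, adjusted p = 0.674).

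Sult1e1, the estrogen sulfotransferase, was the member with the lowest fitted value in CDK18KO against WT. It had 36 counts in the WT libraries, 33 of them in WT 2, and 2 counts in CDK18KO, both in CDK18KO 1, so it passed the minimum only through WT. As a description, WT exceeded CDK18KO 13.9-fold with a 95% counting interval of 3.57 to 119 (edgeR adjusted p = 0.264), and 4 CDK18KO libraries as well as WT 1 and WT 3 were at 0.

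The SULT2A genes, which sulfate dehydroepiandrosterone and bile acids, were low in most WT libraries. Of the 6 tested, Sult2a5 (41 of 56 counts) and Sult2a6 (102 of 116 counts) passed the minimum only through CDK18KO, so the class median of 4.18 in CDK18KO against WT is a description. The other 4, Sult2a1, Sult2a2, Sult2a3 and Sult2a8, were fitted higher in CDK18KO than WT by 3.35 to 7.46 on the log2 scale, each with an unadjusted p under 0.05, and by 2.82 to 5.94 in DKO. In DKO against CDK18KO those 4 were fitted at -1.52 to 0.26, with 0 at an unadjusted p under 0.05.

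Sult2a3 (chr7:14067446-14123044, minus strand) had the smallest p of all members in CDK18KO against WT. Sult2a3 measured 0, 0.454, 0.304, 1.22 and 0.719 CPM in WT replicates 1 to 5, 11, 196, 34, 254 and 2.36 in CDK18KO replicates 1 to 5, and 22.4, 84, 0.321 and 32.7 in DKO replicates 1 to 4. All WT libraries were at 1.22 CPM or less and all CDK18KO libraries at 2.36 or more, whereas DKO 3, at 0.321 CPM, lay within WT. The log2 fold change was 7.46 ± 1.47 in CDK18KO against WT (adjusted p = 0.111) and 5.94 ± 1.44 in DKO against WT (adjusted p = 0.174). Sult2a1 ranged from 0.348 to 27.5 CPM in WT, 7.66 to 175 in CDK18KO and 0.641 to 108 in DKO. Sult2a8, a bile acid sulfotransferase, reached 83.4 CPM in CDK18KO 2 and 24.7 in DKO 2, and Sult2a6 reached 27.3 CPM in CDK18KO 4. As the SULT2A genes are a cluster of close copies on chromosome 7, reads could be split between them in counting.

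Sult3a1 (chr10:33857721-33879532, plus strand), an amine sulfotransferase known as female-biased in mouse liver, had most of its counts in DKO. Sult3a1 was found at 0.348, 1.06, 0.304, 0 and 0.719 CPM in WT replicates 1 to 5, 0, 0.511, 0, 0.329 and 0 in CDK18KO replicates 1 to 5, and 18.9, 10.5, 2.89 and 2.68 in DKO replicates 1 to 4. It passed the minimum only through DKO (98 of 110 counts, with 12 elsewhere), so what follows is a description. Every DKO library lay above every CDK18KO library, as held for 1 of 44 members and for 1.1% of all genes, and above every WT library, with 0 members separated from CDK18KO in the opposite direction (0.664%). With 98 counts in DKO and 2 in CDK18KO the ratio was 64.1 with a 95% counting interval of 17.3 to 537 (edgeR adjusted p = 0.166), and DKO against WT gave a log2 fold change of 4.01 ± 0.89 (adjusted p = 0.174). DESeq2 gave adjusted p values of 0.00125 and 0.00412, which are likewise descriptions, as the gene was tested only because of its DKO counts. Without the libraries with Y-linked genes above 100 CPM the log2 fold changes were 5.19 against CDK18KO and 3.97 against WT (adjusted p = 0.227 and 0.394).

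**Figure D5:**
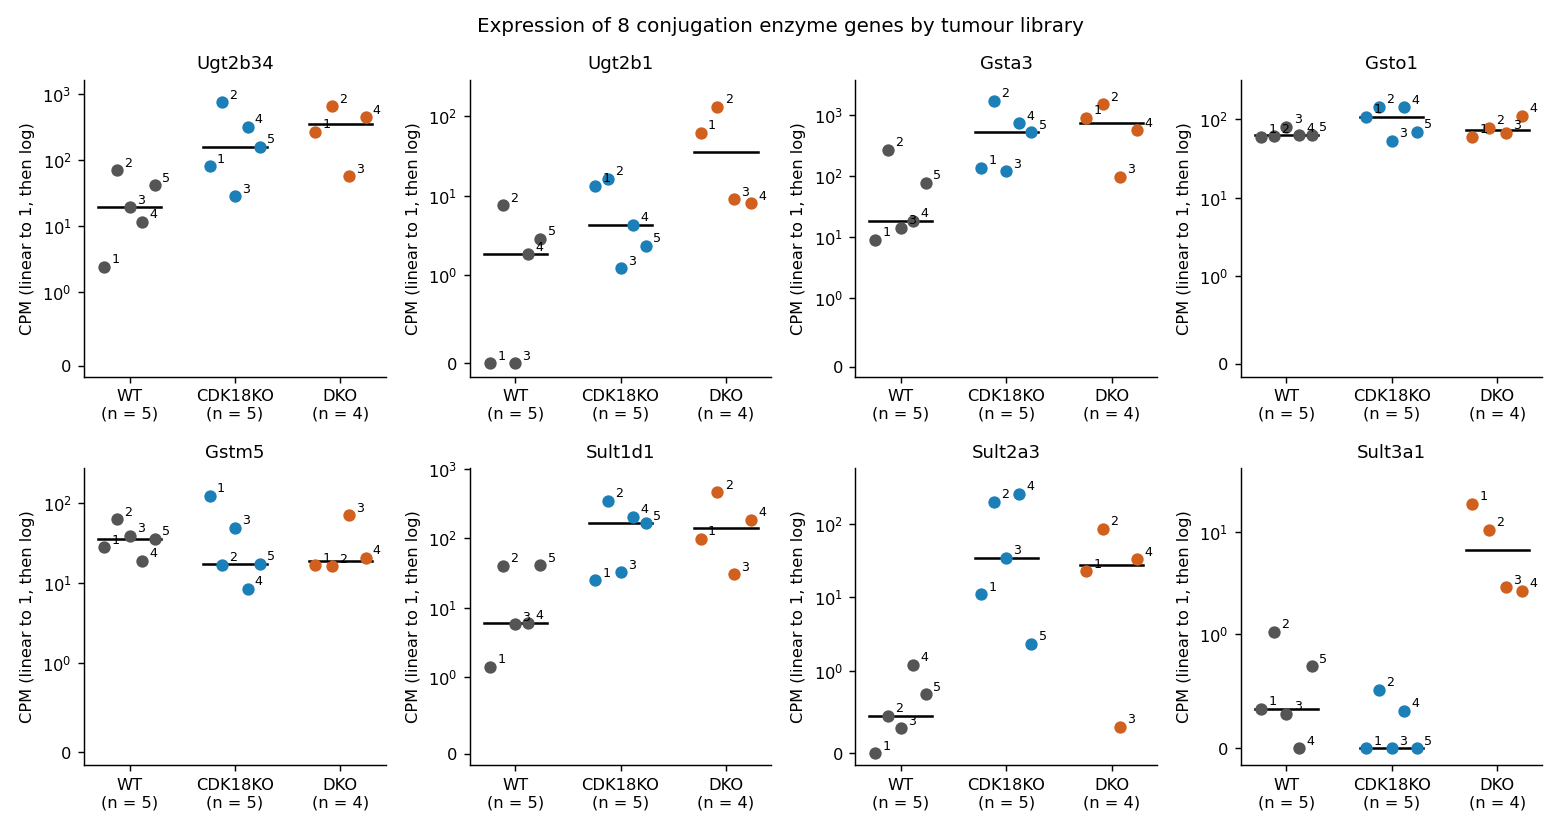
CPM of 8 members in each library by group (axis linear up to 1 CPM and logarithmic above), with replicate numbers and a bar at the group median. Sult3a1 is at 2.68 CPM or more only in DKO, Sult2a3 is at 1.22 CPM or less in all WT libraries and in DKO 3, and Gsto1 stays between 53.6 and 146 CPM.

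The remaining SULT genes were scarce. Sult4a1, a brain form, and Sult6b1 were at 4.90 and 4.24 CPM or less, and no group stood out. Under the test's minimum were Sult1c1 at 0 counts, Sult2a7 (1 count), Sult6b2 (4 counts), Sult2b1 (7 counts), Sult3a2 (9 counts), Sult5a1 (13 counts) and Sult2a4 (17 counts). Of the 9 Sult3a2 counts, 8 were in DKO libraries.

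The supply of donor molecules was described from lists of other genes of these pathways, in which 0 genes were called in the 2 comparisons with WT. Of 8 genes for UDP-glucuronic acid supply and export of conjugates, 6 were higher at an unadjusted p under 0.05 in CDK18KO (9.47% of all genes) and 6 in DKO (11.6%). The medians of the 8 genes were 1.62 and 1.62. Their sum ranged from 279 to 630 CPM in WT, 456 to 3035 in CDK18KO and 460 to 2238 in DKO, so the groups overlapped. Group means of single genes are given here and below without the spread between libraries, unless stated. Ugdh, which makes UDP-glucuronic acid, averaged 31.3, 174 and 319.8 CPM in WT, CDK18KO and DKO, and Abcc2, which exports conjugates into bile, 28.7, 508 and 333. Slc35d1, which carries UDP-glucuronic acid into the endoplasmic reticulum, averaged 88.5, 369 and 292 CPM.

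For PAPS supply the median of 8 genes was 0.13 in CDK18KO and -0.03 in DKO against WT, with 3 and 2 genes higher at an unadjusted p under 0.05. The shares of all genes higher at this threshold were 9.47% and 11.6%. Papss2, a PAPS synthase, averaged 15.1, 55.6 and 74.2 CPM, whereas Papss1 averaged 36.4, 25.2 and 25. For glutathione synthesis and turnover the medians of 13 genes were 1.15 and 1.29, with 5 and 6 higher at the same threshold. Gclm, the modifier subunit of glutamate-cysteine ligase, had log2 fold changes of 2.24 ± 0.55 and 2.04 ± 0.57 (adjusted p = 0.158 and 0.174).

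Targets of NRF2, the factor that binds antioxidant response elements, had medians of 1.13 and 1.05 over 21 genes. At an unadjusted p under 0.05, 10 and 7 targets were higher (9.47% and 11.6% of all genes). Within the list of targets Nqo1 had log2 fold changes of 1.01 and 0.34. Xenobiotic sensors and liver transcription factors had medians of 1.04 and 1.75 over 20 genes. Nr1i3, the receptor CAR, averaged 2.59, 14.3 and 40.1 CPM, and Hnf4a 11.3, 79.2 and 59.1. Hnf4a ranged from 0 to 45.4 CPM in WT, 6.50 to 169 in CDK18KO and 5.13 to 101 in DKO, so the groups overlapped. The other phase II transferases, which add methyl, acetyl, glycine or taurine groups, had medians of 2.7 and 3.45 over 15 genes, all fitted above 0 in both comparisons. A list made for hydrolases that remove glucuronic acid or sulfate had 6 tested genes. Its medians were 0.80 and 0.91, with 3 and 3 higher at an unadjusted p under 0.05 (9.47% and 11.6% of all genes). That list also held Sumf1, Sumf2 and Klb, which are not such hydrolases, and Klb had one of its smallest p values.

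Mixed lists of membrane-bound and related genes outside the symbol rule gave smaller medians, 0.05 and 0.07 for 9 GST-like and -0.59 and -0.01 for 10 SULT-like genes. Of the GST-like genes, 3 were higher and 1 lower at an unadjusted p under 0.05 in CDK18KO against WT (9.47% and 6.48% of all genes). In DKO against WT 3 were higher and 0 lower (11.6% and 5.08%). The microsomal transferases Mgst1, Mgst2 and Mgst3 had the smallest p values of that list, so its median does not describe them. Within the GST-like list Mgst1, a microsomal glutathione transferase, averaged 112, 789 and 920 CPM in WT, CDK18KO and DKO, while Eef1g, a translation factor with a GST-like domain, averaged 383, 384 and 298. The 4 UGT-like genes tested had medians of -0.07 and 0.13. Among them Ugt8a, which makes galactosylceramide, averaged 4.12, 0.250 and 4.74 CPM in WT, CDK18KO and DKO, with a log2 fold change of -3.91 ± 1.08 in CDK18KO against WT (adjusted p = 0.158), and Ugt3a1 had log2 fold changes of 4.40 ± 1.41 and 4.13 ± 1.42 (adjusted p = 0.179 and 0.184). Sex-biased liver genes had medians of 1.21 and 3.49 over 15 genes. At an unadjusted p under 0.05, 5 and 10 were higher (9.47% and 11.6% of all genes) and 0 lower (6.48% and 5.08%). Cyp2a4, known as female-biased, averaged 4.97, 1.53 and 139 CPM in WT, CDK18KO and DKO. Cyp4a12a and Cyp4a12b, close copies known as male-biased, averaged 0.0303, 34.5 and 4.60 CPM and 0.0303, 22.5 and 0.973 CPM.

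Promoters were read from RefSeq (GRCm38.p6), which held 66 promoters for 55 of the 64 members, each from 250 bases before to 50 bases after the start. The antioxidant response element core TGACNNNGC was found on either strand in 3 of the 66 (4.55%, all GST: Gsta3, Gstm5 and Gstm7), against 12.4% of 32851 promoters of all genes. CAAAGTCCA, an HNF4 motif, was in Sult1b1 only (1.52%, against 0.475% of all), and the E-box CACGTG bound by Myc was in 0, against 7.15% of all. No match says only that these letters are not in this window.

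The 150 bases before the start are shown for Gsta3 and Gstm5, with the antioxidant response element core in capitals, since both hold the core and their values differed in pattern.
Gsta3 (chr1:21240435-21240584, plus strand): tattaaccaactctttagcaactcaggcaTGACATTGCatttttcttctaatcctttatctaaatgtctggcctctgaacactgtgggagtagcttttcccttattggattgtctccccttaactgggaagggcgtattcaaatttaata
Gstm5 (chr3:107895704-107895853, plus strand): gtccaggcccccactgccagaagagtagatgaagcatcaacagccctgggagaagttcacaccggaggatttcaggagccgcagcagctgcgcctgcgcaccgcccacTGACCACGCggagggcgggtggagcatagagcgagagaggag
The first base of the core lies at -121 in Gsta3 and -42 in Gstm5, counted from the start. The log2 fold change in CDK18KO against WT was 3.04 for Gsta3 and 0.22 for Gstm5.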

How the data were processed

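The deposited table holds whole-number read counts per gene for 14 tumour libraries, unnormalized, with 0 columns of single samples left unused. Per the labels' protocols, QuantSeq 3′ libraries with unique molecular identifiers (UMIs) were sequenced as single reads in the sense orientation. The submitters' processing notes list, with no order, STAR 2.7.11a, HTSeq 1.99.2, UMI-tools 1.1.2, DESeq2 1.32.0 and FastQC. They also list the builds mm10 and GRCh38, with no role given. UMI collapsing before counting, the treatment of multiply mapped reads and the annotation are not given in the sources used here. Intervals cover counting error only.

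Genes with 20 or more counts summed over libraries (99.8% of counts) were fitted in 1 edgeR 4.0.16 quasi-likelihood model (R 4.3.3) over all 14 libraries with TMM scaling. P-values were two-sided, adjusted by Benjamini-Hochberg over 19723 genes, and called at 0.05; the standard error is the log2 fold change over the square root of F. DESeq2 1.42.0 was an alternative. The procedure was also run on simulated counts, but no outcome is given here, so that run is no check of these results. Labels do not say that replicates came from separate animals, so p-values measure the spread between these samples. No library was a duplicate of another by a chi-square of counts. Positions and transcripts are GENCODE M21 (GRCm38), and promoters are RefSeq's.

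The members, the gene lists and the tests were chosen with earlier results of these data known. Named members are the 10 with the smallest p per comparison, the 4 highest of each family, the extremes of each family, the Ugt1a and Gstp genes and those under 20 counts. Up to 3 genes with the smallest p were to be named per list. Slc35d1, Papss1, Nqo1, Hnf4a, Eef1g, Gsta4, Gstk1, Sult4a1 and other genes named outside this rule were chosen after their values were seen. Alternatives are given in the closing section. A further motif searched in the promoters is not reported here.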

Additional observations from a re-analysis of the deposited data

Results flagged for a closer look

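Of 93 member and group combinations of 4 or 5 libraries, 5 held a library far from the rest of its group, and chance gives about 1 in 20. Values here are CPM read back from log2 CPM with a prior count of 2, which sets a floor near 0.68. Gsto1 in WT was highest in WT 3 at 81.6 CPM, with the other libraries at 61.3 to 64.0. Sult2a6 in WT was highest in WT 2 at 1.59 CPM, with the rest at 0.68. Sult2a8 in WT was also highest in WT 2, at 3.71 CPM, with the rest at 0.68 to 0.985. Sult1e1 in CDK18KO was highest in CDK18KO 1 at 1.33 CPM, with the rest at 0.68. Gsto2 in DKO was lowest in DKO 2 at 0.68 CPM, with the rest at 1.75 to 1.96.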

How the results depend on the processing

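Counts of members called were 0 in each comparison under every leave-one-out fit, and under RLE and upper-quartile scaling. DESeq2 called 16 in CDK18KO against WT, 18 in DKO against WT and 1 in DKO against CDK18KO, beside 930, 1033 and 129 genes in all. That 1 was Sult3a1, also among the 18, which passed the minimum of 20 counts only through DKO, so its calls are descriptions. With no filter beyond 1 count edgeR called 3, 7 and 1 members, beside 173, 252 and 42 of 38425 genes in all. Sult3a1 was again that 1 and among the 7. A fit with the replicate number as a block called 5, 9 and 0 members, beside 259, 353 and 0 of 19723 genes in all. The labels give replicate numbers without saying whether equal numbers pair samples. The 13 same-numbered pairs had correlations of -0.17 to 0.57, 5 above 0.1, and 3 of 14 libraries matched best with their own number. Such correlations do not record how samples were handled, so they cannot decide whether the numbers mark a pairing. A tally of single-gene results covered only the 28 named members, with 84 results in the main fit. Of these under the alternatives, 57 passed the threshold (32 with DESeq2, 11 without the filter, 14 with the replicate block), all higher. Many of these members were named for a small p or an extreme value, so the tally does not describe all members. Gstt2 and Sult2a2, called by DESeq2, are not in it.

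Among the same 28 named members, signs turned in 65 of the single-gene results and alternatives, none of them past the threshold. With the replicate block the turned log2 fold changes were Sult1e1 0.30 in DKO against WT, and Gstm3 0.083 in DKO against CDK18KO. With the Y-linked covariate they were Sult2a5 -1.19 in DKO against WT, and Gsta3 -0.033 and Gstm1 -0.20 in DKO against CDK18KO. With the hepatocyte covariate they were Ugt2a3 -0.52, Gstz1 -0.025, Sult1a1 -1.68 and Sult1b1 -1.30 in CDK18KO against WT, and Ugt1a6a -0.24, Gstm3 -0.55, Gstz1 -0.039, Sult1a1 -1.01, Sult1b1 -0.24, Sult2a1 -1.14, Sult2a5 -2.26, Sult2a6 -2.66 and Sult2a8 -0.75 in DKO against WT, and Ugt2b34 -0.036, Ugt2b35 -0.21, Ugt2b5 -0.47, Gsta3 -0.56, Gstm1 -0.57, Gstm2 -0.23, Gstz1 -0.013 and Sult1d1 -0.38 in DKO against CDK18KO. Without the libraries above 100 CPM of Y-linked genes they were Sult2a5 -0.19 in DKO against WT, and Gsta3 -0.040, Gstm1 -0.19 and Gsto2 -0.14 in DKO against CDK18KO. Leaving out a replicate turned the sign of 16 results, whose ranges in DKO against CDK18KO were Gsta3 -0.36 to 1.04, Gstm1 -0.89 to 0.62, Gsto2 -0.11 to 0.42, Ugt1a1 -3.41 to 0.77, Gstm3 -1.27 to 0.55, Gstm4 -0.74 to 0.85, Sult2a8 -2.46 to 1.28, Ugt2b35 -0.29 to 0.90, Gsta2 -2.15 to 1.13, Sult2a1 -1.23 to 0.088, Ugt2b34 -0.10 to 1.30, Ugt2b36 -0.21 to 2.42, Ugt2b5 -0.66 to 1.57, Gstm2 -0.49 to 1.2 and Sult1d1 -0.61 to 0.91, and in DKO against WT Sult2a5 -0.59 to 1.73.

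Family medians of the log2 fold change ranged, over fits that each left out a replicate, from 2.37 to 3.71 (UGT), 1.82 to 3.60 (GST) and 1.47 to 3.58 (SULT) in CDK18KO against WT. In DKO against WT the ranges were 2.91 to 4.65, 1.97 to 3.69 and 2.14 to 4.23, and in DKO against CDK18KO -0.21 to 1.30, -0.42 to 0.38 and -0.46 to 0.75. The highest values in both comparisons with WT were without WT replicate 2. With hepatocyte markers as a covariate the medians were 0.61, 0.50 and 0.59 in CDK18KO against WT and 0.66, -0.16 and -0.24 in DKO against WT. With Y-linked genes as a covariate GST and SULT gave 1.4 and 1.54 in DKO against WT. Stricter filters moved the SULT median in CDK18KO against WT to 3.27 (filterByExpr) and 3.29 (100 counts). The first of these filters tested 33 and the second 35 of the 44 members, so these medians are over fewer genes. Under 100 counts were Sult1e1, Sult4a1 and Sult6b1, at -2.99, 0.68 and 1.17 in the main fit, and Sult2a5. Causes of the shifts were not tested further. Upper-quartile scaling shifted the median of all genes to -0.17 and -0.15 in the comparisons with WT. The sum of Gstp rows with Gstp-ps was an alternative chosen after seeing the data. The rarest members cannot show small differences.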
